A study of Drosophila melanogaster with 6 samples.

Results

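Tubulin genes encode the building blocks of microtubules, and 10 of them were followed here in tendon precursors of the fly leg: alphaTub84B, alphaTub84D, alphaTub85E and alphaTub67C, betaTub56D, betaTub60D, betaTub97EF and betaTub85D, and gammaTub23C and gammaTub37C. They were chosen by gene symbol, not by a measured value, and are 10 of 17411 genes with an FPKM (read fragments scaled by transcript length and library depth) and 10 of 17490 genes with a mean normalized count. The data are RNA-seq of Drosophila melanogaster leg imaginal discs at 0 h APF (after puparium formation), with 3 libraries of GFP+ cells and 3 libraries of input cells. Both groups came from animals of 1 genotype, given as sr-gal4>UASGFP in the labels and as UAS-Lifeactin.GFP with sr-gal4 over TM6b, tb in the methods, and received no other treatment. In the GFP+ group, cells were sorted on GFP, which the sr-gal4 driver puts in cells that express stripe (sr), a transcription factor gene required for tendon cell differentiation. In the input group, cells of the same discs were collected before the GFP gate whatever their fluorescence, so the input holds GFP+ cells too. Each sample pooled the leg discs of many animals, and the sex of the animals is not given in the sources used here.

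An α-tubulin and a β-tubulin pair into the heterodimer that polymerises into the microtubule, while γ-tubulin sits in the ring complex that nucleates new microtubules. Drosophila has a general α-, β- and γ-tubulin used by nearly all cells and a set of isoforms with narrow expression, known from testis, ovary, muscle and sense organs. Microtubules also form the long apical-basal arrays of tendon cells that carry the pull of the muscle.

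The sort can be read from sr itself, at 54.5 FPKM in GFP+ cells and 6.59 FPKM in input. Of 6 tendon markers, 3 were higher and 2 lower in GFP+ cells, and their FPKM summed to 564 in GFP+ cells, against 285 in input. The difference in the sum was carried by Tsp, at 345 FPKM in GFP+ cells and 59.0 FPKM in input. The 2 lower markers were how, at 39.0 FPKM in GFP+ cells and 81.5 FPKM in input, and slow, at 24.9 FPKM in GFP+ cells and 84.3 FPKM in input. Myoblast markers were lower, 7 of 9 of them, and their FPKM summed to 33.6 in GFP+ cells, against 206 in input. Library totals, approximated as described with the processing, were 26757000 to 36974800 reads counted in genes. The FPKM table gives 1 value per group with a lower and an upper confidence bound, so a gene is called higher or lower here where the bounds of the GFP+ cells and of the input do not overlap, among genes with bounds in both groups and an FPKM of at least 1 in the higher group. By this rule 8.14% of all 9199 genes read were higher and 12.9% were lower. The rule is a description of the deposited bounds and not a test between libraries. In bulk RNA fewer cells of a type and less RNA per cell cannot be told apart.

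Tubulin transcripts were among the most abundant of the discs. The mean normalized count over all 6 libraries was 299995 for alphaTub84B and 243251 for betaTub56D, which ranked 1 and 2 of all genes with transcripts of at least 500 nt, per kilobase of transcript. The 10 tubulin genes together held 1.86% of all mean normalized counts, and alphaTub84B and betaTub56D held 92.4% of the tubulin counts. Next came betaTub60D at 21002 and alphaTub84D at 18504, then gammaTub23C at 2548 and betaTub97EF at 2231. The other 4 genes were far lower, at 124 for alphaTub85E, 34.9 for betaTub85D, 12.6 for alphaTub67C and 1.22 for gammaTub37C.

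**Figure D1:**
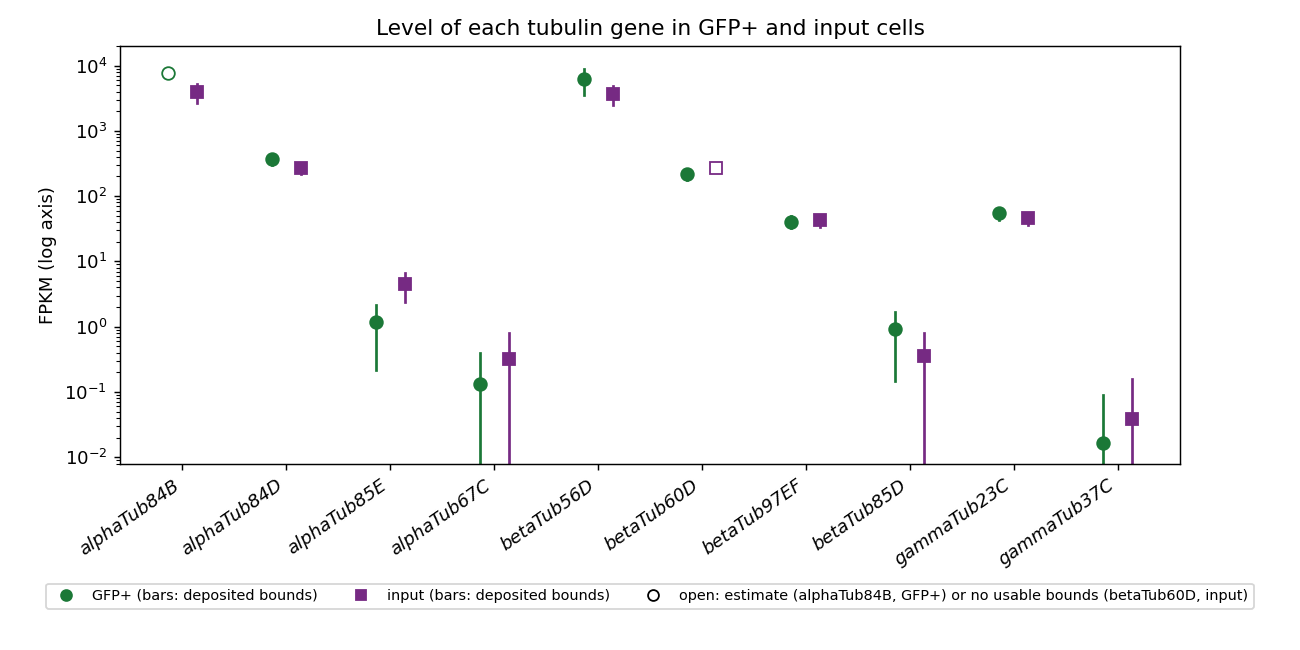
FPKM of each tubulin gene (log axis) in GFP+ cells (circles, left of each pair) and input cells (squares), 1 value per group from 3 libraries, with the deposited confidence bounds as bars; bars that leave the axis below reach 0. The open circle of alphaTub84B is an estimate from the mean normalized count, at 7664 FPKM, and the open square of betaTub60D has no usable bounds. The bounds lie apart only for alphaTub85E, at 1.17 FPKM in GFP+ cells and 4.56 FPKM in input.

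Of the 10 genes, 5 could be read by their bounds. Of these, 0 were higher and 1 was lower in GFP+ cells, and the bounds of the other 4 overlapped. Over all 9199 genes read in the same way, 8.14% were higher and 12.9% were lower, 21% in either direction. A further 3 genes (alphaTub67C, betaTub85D and gammaTub37C) were below 1 FPKM in both groups, and 2 (alphaTub84B and betaTub60D) had no usable bounds in 1 group. The median log2 ratio of GFP+ over input was 0.27 for the 5 genes and 0.03 for all genes with a ratio.

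The general α-tubulin, alphaTub84B, lies on chromosome arm 3R at 7086599-7088839 of dm6, on the plus strand, with 2 exons and 1 transcript of 1752 nt that encodes 450 amino acids. Its input level was 3983 FPKM (bounds 2653 to 5314), rank 6 of the genes with an FPKM estimate. In GFP+ cells the table lists it at 0 with the status HIDATA, with which Cufflinks marks a locus that holds too many reads to be processed, so this 0 is a missing estimate and not a low level. Its GFP+ level was therefore estimated here from the mean normalized count, which covers both groups. The input FPKM, multiplied by a factor of 1.01 described with the processing, was taken off. The conversion came from 70 genes with 1 transcript of 1500 to 2500 nt and over 100 FPKM in both groups. In these the mean count per kilobase was a median of 29.3 (quartiles 27.4 and 31.0) times the mean FPKM, with the same factor on the input.

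The estimate for alphaTub84B was 7664 FPKM in GFP+ cells, against the 3983 FPKM of the input, a ratio of 1.92 and a log2 ratio of 0.94. With the scale at its quartiles it was 7014 and 8486 FPKM, ratios of 1.76 and 2.13. With the input at its upper bound the ratio was 1.19, and with the input at its lower bound 3.40. With the scale at its upper quartile and the input at its upper bound together, the ratio was 1.07. The groups would be equal at an input of 5813 FPKM with the median scale and 5490 FPKM with the upper quartile. Both are above the upper bound of 5314 FPKM, the second only slightly. No bounds exist for the GFP+ level, so alphaTub84B was left out of the count of genes called.

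The same estimate was made for the 5 tubulin genes that could be read by their bounds, of which alphaTub84D is also 1 of the 70 genes of the scale. It returned 6357 FPKM for betaTub56D against the deposited 6226 FPKM, a ratio of 1.02. For alphaTub84D it returned 363 FPKM against the deposited 369 FPKM. It was 1.14 times the deposited level for betaTub97EF and 0.876 times for gammaTub23C. Of these 5, the estimate was farthest off for the low alphaTub85E, at 0.827 FPKM against the deposited 1.17 FPKM, 0.704 times. betaTub60D, whose input value has the status FAIL, was left out of this check. Its mean count per kilobase was 34.3 times its mean FPKM, with no factor on the input. That is above the upper quartile of the scale, 31.0, so its estimate would lie above its deposited GFP+ level. Among the 70 genes of the scale, 65.7% had an estimate within 20% of the deposited level. The estimate at the 5th percentile was below 0, so single genes can be far off. Estimates below 0 included genes with a mean normalized count of 0 despite their FPKM, such as CG45087 and tal-3A. Hsp67Ba and Rab1 were below 0 with counts above 0.

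**Figure D2:**
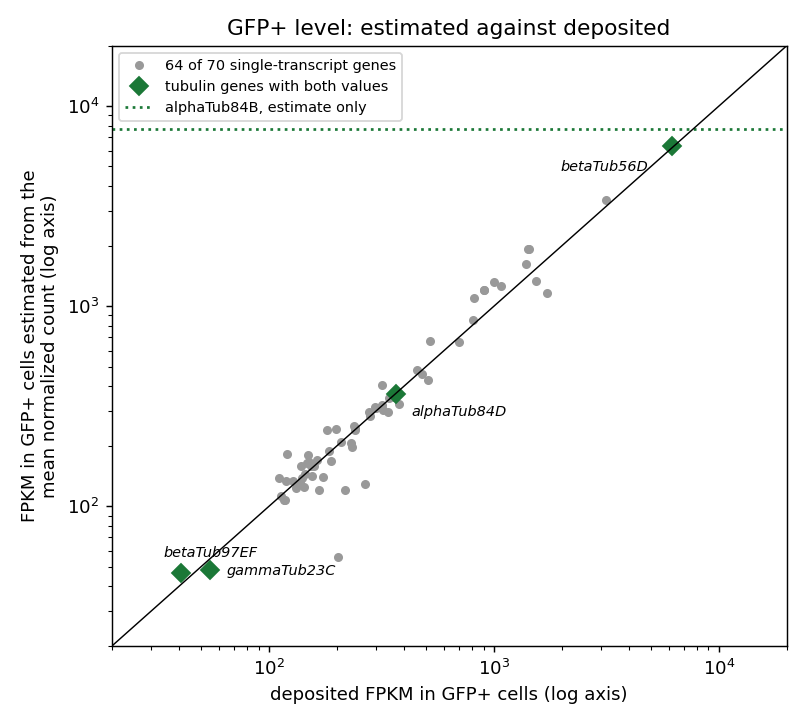
GFP+ FPKM estimated from the mean normalized count (vertical, log axis) against the deposited GFP+ FPKM (horizontal, log axis), for 64 of the 70 genes of the scale (grey; the other 6 have estimates of 20 FPKM or less) and for 4 tubulin genes (green diamonds; alphaTub85E lies below the axes), with the line of equality. betaTub56D lies close to the line, at 6357 FPKM estimated and 6226 FPKM deposited, and the dotted line marks alphaTub84B, which has an estimate alone, at 7664 FPKM.

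alphaTub84D is the other general α-tubulin, a single-exon gene on 3R at 7530753-7532732 (plus strand) whose transcript of 1980 nt also encodes 450 amino acids. Its protein is nearly identical to that of alphaTub84B, and how the authors' counting treated reads that match both genes is not given in the sources used here, so the split between the pair is uncertain. It was at 369 FPKM in GFP+ cells (bounds 298 to 441) and 272 FPKM in input (bounds 220 to 323). The bounds overlapped, and the ratio of 1.36 could lie between 0.923 and 2.0 by the bounds. When each group was rescaled to the same summed FPKM over all genes, which takes 0.44 off every log2 ratio, its log2 ratio was 0.01. Summed with the estimate of alphaTub84B, the pair had a log2 ratio of 0.92.

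alphaTub85E was the only tubulin gene whose bounds did not overlap. It encodes a variant α-tubulin of 449 amino acids known from developing muscle, the support cells of chordotonal organs (stretch-sensing organs) and the somatic cells of the testis, and lies on 3R at 9731221-9733250 (minus strand, 3 exons, 1560 nt). Its level was 1.17 FPKM in GFP+ cells (bounds 0.214 to 2.14) and 4.56 FPKM in input (bounds 2.39 to 6.73), a ratio of 0.258 and a log2 ratio of -1.96. By the bounds the ratio could lie between 0.0319 and 0.893. Among genes with 1 to 10 FPKM in the higher group, 15.1% had bounds that did not overlap in either direction. The summed level of the 9 myoblast markers given above was lower in GFP+ cells too, and none of the 9 was listed at 0. Of the 10 chordotonal markers, 3 could be read. Of these, 1 was higher, 1 lower (dila) and 1 overlapping, beside 8.14% higher and 12.9% lower over all genes. The 10 summed to 20.8 FPKM in GFP+ cells, against 9.25 FPKM in input, a difference carried by atonal (ato), the transcription factor that starts chordotonal organs, at 15.5 FPKM in GFP+ cells and 2.75 FPKM in input. The other 9 summed to 5.27 FPKM in GFP+ cells, against 6.49 FPKM in input. ato and dila were named after their values were seen. The part of these cell types in the level of alphaTub85E was not tested.

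alphaTub67C, the maternal α-tubulin of the ovary and early embryo (3L at 9681268-9683370, plus strand, 462 amino acids), was at 0.131 FPKM in GFP+ cells and 0.32 FPKM in input, and both lower bounds were 0. Because its mean normalized count is low, the whole reads behind it could be recovered for each library, though not the replicate number of a library, so libraries are numbered in an order of their own within each group. The 3 GFP+ libraries had 3, 3 and 15 reads, against 24, 10 and 24 reads in the 3 input libraries. Divided by the size factor of the library, the GFP+ reads became 3.55, 3.28 and 14.7, mean 7.17 ± 6.51 (SD, n = 3), against 24.7, 8.61 and 20.5 for the input, mean 18.0 ± 8.37 (SD, n = 3). The highest GFP+ library lay above the lowest input library, so the groups overlapped, and an exact two-sided permutation test gave p = 0.2.

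Of the summed α-tubulin FPKM, the general pair alphaTub84B and alphaTub84D held 99.98% in GFP+ cells and 99.89% in input. alphaTub84D alone held 4.60% of the α-tubulin FPKM in GFP+ cells and 6.38% in input. alphaTub85E held 0.0146% of the α-tubulin FPKM in GFP+ cells and 0.107% in input. All 3 shares in GFP+ cells rest on the estimate of alphaTub84B, and the shares of both groups move with its input level. With that level at its upper bound of 5314 FPKM, the estimate was 6318 FPKM. The share of alphaTub84D would then be larger in GFP+ cells than in input, so its order between the groups is not settled.

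betaTub56D is the general β-tubulin. It lies on 2R at 19447319-19451600 (minus strand), with 2 transcripts of 1596 and 1701 nt and a longest product of 456 amino acids. Its level was 6226 FPKM in GFP+ cells (bounds 3537 to 8916) and 3677 FPKM in input (bounds 2496 to 4859). Among genes not marked HIDATA, which leaves out alphaTub84B in GFP+ cells, it was rank 13 in GFP+ cells and rank 11 in input. The log2 ratio was 0.76, a ratio of 1.69 that could lie between 0.728 and 3.57 by the bounds, which overlapped. Its bounds were wide for a gene of its level. They lay 43.2% from the value in GFP+ cells and 32.1% in input, against medians of 23.7% in GFP+ cells and 21.6% in input over 118 genes with at least 1000 FPKM in both groups. Of 142 genes with at least 1000 FPKM in either group, 65.5% had bounds that did not overlap.

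betaTub60D encodes a β-tubulin known from developing muscle and chordotonal organs, and lies on 2R at 24305881-24313099 (plus strand, 4 exons, 2 transcripts of 2515 and 2518 nt, 454 amino acids). It was at 216 FPKM in GFP+ cells (bounds 175 to 257) and 271 FPKM in input. The status of the input value is FAIL and its bounds do not contain the value, so they were not used and no call was made. The ratio was 0.794 and the log2 ratio -0.33, at -0.77 after rescaling to the same summed FPKM and -0.17 after the trend with transcript length was removed. Among genes not marked HIDATA, its GFP+ level was rank 485 and its input level rank 321. The myoblast marker sum given above was lower in GFP+ cells, and the chordotonal markers other than ato also summed to less in GFP+ cells. The part of these cell types in the level of betaTub60D was not tested.

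betaTub97EF, a β-tubulin known from the gut and from animals kept in the cold, lies on 3R at 27967008-27988384 (minus strand, 7 exons, 457 amino acids). It was at 40.7 FPKM in GFP+ cells (bounds 32.1 to 49.4) and 42.8 FPKM in input (bounds 34.0 to 51.7). The ratio was 0.951 and could lie between 0.621 and 1.45 by the bounds. Its log2 ratio was -0.07, and -0.51 after rescaling to the same summed FPKM.

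betaTub85D is the β-tubulin of the male germ line, from which the sperm tail is built. It lies on 3R at 9408383-9410282 (minus strand, 2 exons, 1841 nt, 446 amino acids). Its level was 0.923 FPKM in GFP+ cells (bounds 0.146 to 1.70) and 0.361 FPKM in input (bounds 0 to 0.787), and the bounds overlapped. The GFP+ libraries had 53, 27 and 59 recovered reads, against 16, 28 and 22 in the input libraries. Divided by size factors, the GFP+ reads became 62.7, 29.5 and 57.8, mean 50.0 ± 17.9 (SD, n = 3), against 16.5, 24.1 and 18.8 for the input, mean 19.8 ± 3.90 (SD, n = 3). All 3 GFP+ libraries lay above all 3 input libraries, a ratio of 2.52 and a log2 ratio of 1.34. An exact two-sided permutation test gave p = 0.1, the smallest p that 3 libraries against 3 allow, so this design cannot pass 0.05. Among 1280 genes with a mean normalized count of 10 to 40, 17.7% had GFP+ libraries that all lay above the input libraries, and 15.4% had GFP+ libraries that all lay below.

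Of the 9 germline and testis markers matched, 2 could be read, aub and mia. Both had overlapping bounds, so 0 were higher and 0 lower, beside 8.14% higher and 12.9% lower over all genes. Of the 9 markers, 4 were listed at 0 in GFP+ cells (tomboy20, can, djl and Mst84Da) and 2 of these also in input. The 9 markers summed to 8.06 FPKM in GFP+ cells, against 4.25 FPKM in input, of which mia gave 5.53 FPKM in GFP+ cells and 3.13 FPKM in input. The markers are named here after their values were seen, and those with recovered reads went in both directions. bag of marbles (bam), a germ cell differentiation gene, had 41, 25 and 42 recovered reads in the GFP+ libraries, against 8, 10 and 28 in the input libraries. Divided by size factors, the GFP+ libraries of bam lay between 27.3 and 48.5 and the input libraries between 8.24 and 24.0, so its groups did not overlap. can, a gene of male meiosis, had 0, 0 and 0 reads in the GFP+ libraries, against 9, 1 and 3 in the input libraries, the opposite direction. vas, a germ line RNA helicase gene, averaged 7.06 normalized reads in the GFP+ libraries, against 15.2 in the input libraries. djl had no read in a GFP+ library and 0, 2 and 4 reads in the input libraries. nos went in the direction of bam, with 29, 7 and 0 reads in the GFP+ libraries, against 6, 3 and 3 in the input libraries. Its mean after division by size factors was higher in the GFP+ libraries, but its groups overlapped. The part of germ cells in the level of betaTub85D was not tested.

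**Figure D3:**
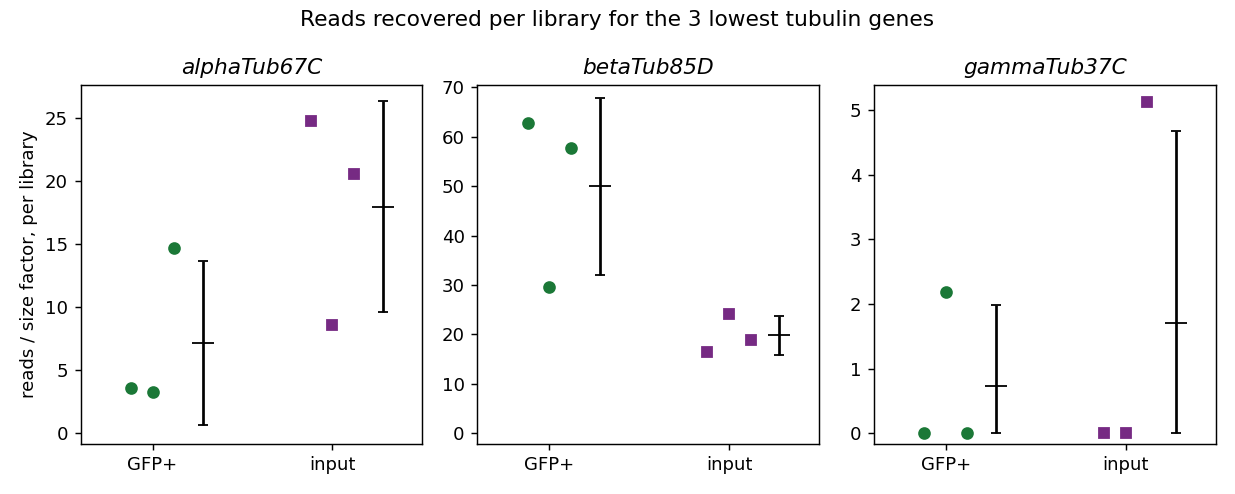
Recovered reads divided by the size factor of the library (vertical, linear axis) for the 3 tubulin genes with the lowest counts, in the 3 GFP+ libraries (circles, left) and the 3 input libraries (squares, right), with the mean and SD beside each group (SD bars stop at 0). For betaTub85D the GFP+ libraries lie between 29.5 and 62.7 and the input libraries between 16.5 and 24.1, while the groups overlap for alphaTub67C and gammaTub37C.

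betaTub56D held 96.0% of the summed β-tubulin FPKM in GFP+ cells and 92.1% in input. betaTub60D held 3.32% in GFP+ cells and 6.80% in input, and betaTub97EF 0.628% in GFP+ cells and 1.07% in input. The level of betaTub56D was 28.9 times that of betaTub60D in GFP+ cells and 13.6 times in input. By the bounds of both genes the ratio in GFP+ cells could lie between 13.8 and 51.1, while the ratio in input has no range, since the input value of betaTub60D has no usable bounds. That value has the status FAIL, so the input ratio of 13.6 and the input share of 6.80% are uncertain. These ratios within a group do not depend on how the groups are scaled to each other.

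gammaTub23C is the γ-tubulin of dividing somatic cells, on 2L at 2972891-2974858 (plus strand, 3 exons, 1850 nt, 475 amino acids). It was at 54.9 FPKM in GFP+ cells (bounds 43.9 to 65.9) and 45.5 FPKM in input (bounds 36.1 to 54.8). The bounds overlapped, with a ratio of 1.21 that could lie between 0.800 and 1.83. Its log2 ratio was 0.27 as deposited and -0.16 after rescaling to the same summed FPKM, so its direction depends on the scaling.

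gammaTub37C, the γ-tubulin of ovary and early embryo (2L at 19183863-19185726, minus strand, 4 exons, 457 amino acids), was barely detected. The GFP+ libraries had 0, 2 and 0 recovered reads, against 0, 0 and 6 in the input libraries, so each group rests on 1 library and no ratio is given. Its upper bounds were 0.0890 FPKM in GFP+ cells and 0.158 FPKM in input. betaTub65B, a further β-tubulin gene outside the 10, was listed at 0 FPKM in GFP+ cells and 0.0178 FPKM in input.

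Between the families, the summed FPKM of the α-tubulins was 8034 in GFP+ cells, with the estimate of alphaTub84B, and 4260 in input. The β-tubulins summed to 6484 FPKM in GFP+ cells and 3992 FPKM in input. α-tubulin was thus 1.24 times β-tubulin in GFP+ cells and 1.07 times in input. Both ratios move with the input level of alphaTub84B. With it at its upper bound of 5314 FPKM, the estimate for GFP+ cells was 6318 FPKM, and the ratio would then be higher in input. The order of the groups is therefore not settled. The summed β-tubulin level was 118 times that of γ-tubulin in GFP+ cells and 87.7 times in input.

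**Figure D4:**
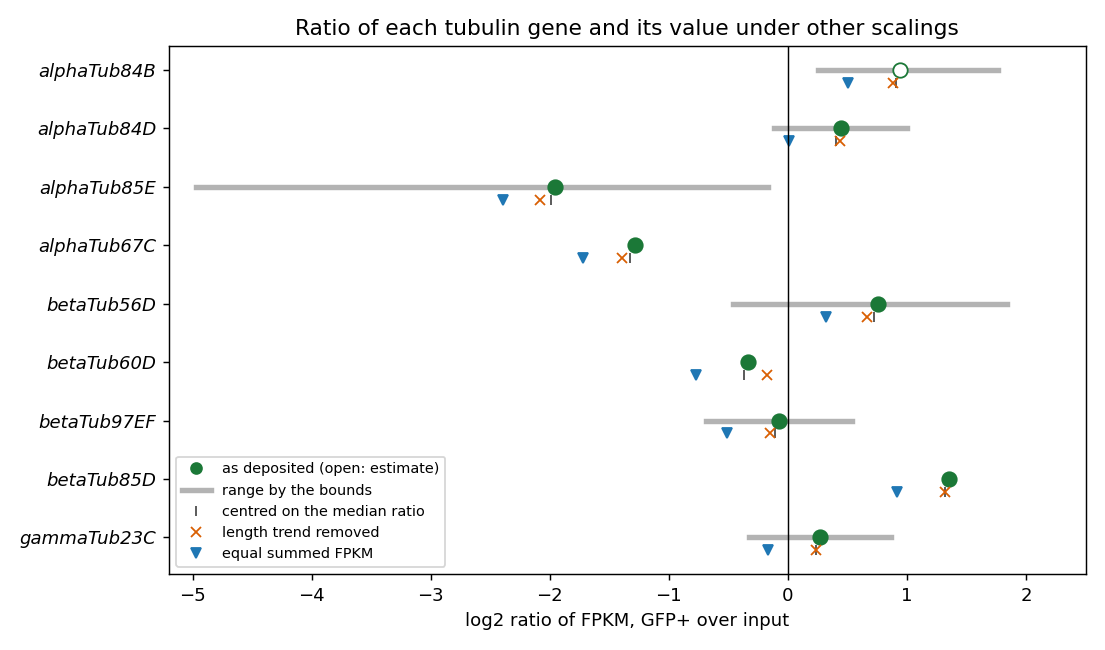
log2 ratio of FPKM, GFP+ over input, for 9 tubulin genes (gammaTub37C is left out), with the range given by the bounds as grey bars and the value under 3 other scalings below each point. The open circle is the estimate of alphaTub84B, whose bar runs over the bounds of the input alone. betaTub60D has no bar because its input bounds were not used, and alphaTub67C and betaTub85D have none because a lower bound is 0. Only alphaTub85E, at -1.96, has a bar from deposited bounds that stays on 1 side of 0, and rescaling to the same summed FPKM takes gammaTub23C to -0.16.

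New tubulin is folded by the cytosolic chaperonin CCT with prefoldin, and tubulin cofactors then assemble the heterodimer. Of 20 such genes listed, 18 were matched and read. Only the prefoldin subunits Pfdn5 and Pfdn6, named after their values were seen, had bounds that did not overlap, both higher in GFP+ cells, and 0 genes were lower, beside 8.14% higher and 12.9% lower over all genes. The 3 most abundant were chaperonin subunits with overlapping bounds. CCT5 was at 531 FPKM in GFP+ cells (bounds 424 to 638) and 387 FPKM in input (bounds 312 to 461). CCT4 was at 507 FPKM in GFP+ cells and 377 FPKM in input, and CCT1 at 398 FPKM in GFP+ cells and 311 FPKM in input. All 18 ratios were above 1, with log2 ratios of 0.18 to 0.74 and a median of 0.43, where 51.5% of all 9054 genes with a ratio were above 1. Rescaling to the same summed FPKM takes 0.44 off each of these log2 ratios, about as much as the list median of 0.43. The direction of the list median thus depends on the scaling. The same amount comes off all other genes, so the place of the list among all genes does not change. The CCT genes share a complex and are not independent of each other.

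γ-tubulin works in the γ-tubulin ring complex, and the augmin complex recruits that complex to existing microtubules. Of 15 such genes, 14 were read and all 14 had overlapping bounds. Thus 0 were higher and 0 lower, beside 8.14% higher and 12.9% lower over all genes. Their median log2 ratio was -0.01. The most abundant, by the mean of both groups, were the augmin subunits wac, at 69.9 FPKM in GFP+ cells and 51.9 FPKM in input, and dgt2, at 47.5 FPKM in GFP+ cells and 37.9 FPKM in input. The ring subunit Grip84 was at 22.5 FPKM in GFP+ cells and 21.8 FPKM in input.

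Tubulin is also modified after synthesis, by acetylation and by chains of amino acids that ligases of the TTLL family add. Of 15 such genes, 10 could be read, with 0 higher and 1 lower, a share near the 12.9% lower over all genes (8.14% were higher), and a median log2 ratio of -0.10. TTLL12 was at 34.8 FPKM in GFP+ cells and 24.0 FPKM in input, the deacetylase HDAC6 at 27.8 FPKM in GFP+ cells and 24.2 FPKM in input, and the acetyltransferase Atat at 26.3 FPKM in GFP+ cells and 22.3 FPKM in input, each with overlapping bounds. The 1 lower gene was TTLL4A, named after its values were seen, at 10.9 FPKM in GFP+ cells and 17.7 FPKM in input. TTLL1B and TTLL3A, also named after their values were seen, were listed at 0 in both groups.

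Among 8 genes of proteins that bind tubulin or the microtubule lattice, 0 were higher and 2 lower, beside 8.14% higher and 12.9% lower over all genes, with a median log2 ratio of -0.23. Jupiter was at 437 FPKM in GFP+ cells and 451 FPKM in input, stathmin (stai) at 278 FPKM in GFP+ cells and 284 FPKM in input, and Mapmodulin at 144 FPKM in GFP+ cells and 193 FPKM in input, with overlapping bounds. The 2 lower genes, named after their values were seen, were ensconsin (ens), a cofactor of kinesin-1, at 30.9 FPKM in GFP+ cells and 61.9 FPKM in input, and futsch, a microtubule-associated protein of neurons, at 0.853 FPKM in GFP+ cells and 2.85 FPKM in input.

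**Figure D5:**
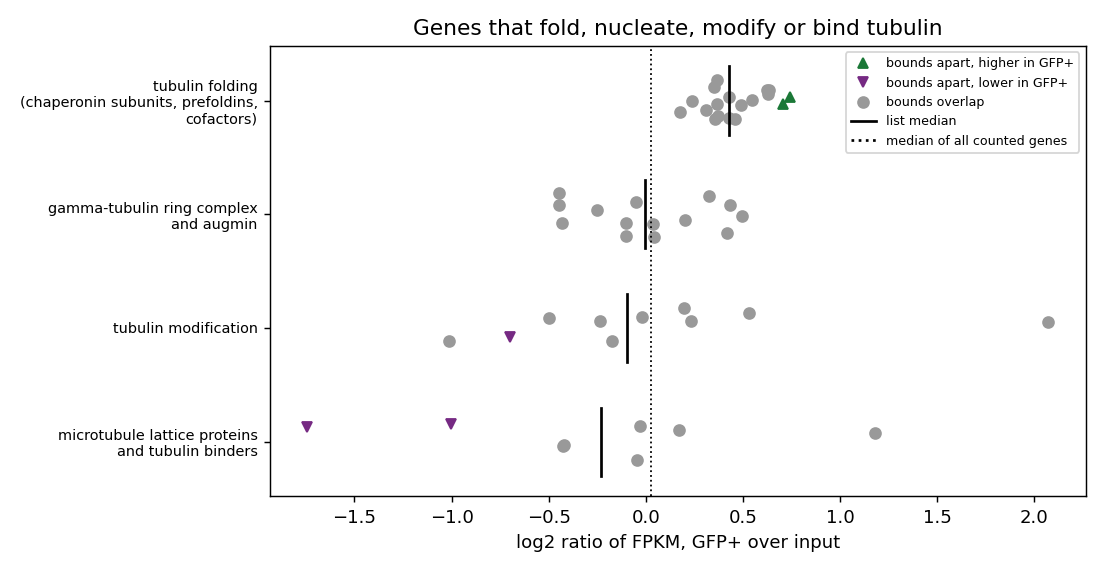
log2 ratio of FPKM, GFP+ over input, for the genes read in each of 4 lists of tubulin-related genes (points, spread vertically to be seen), with the list median (solid line) and the median of all genes read (dotted line, 0.03). The folding genes all lie to the right of 0, with 2 whose bounds do not overlap, while the other lists lie on both sides of 0.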

How the data were processed

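Poly(A) RNA of FACS-sorted leg disc cells was sequenced from a single end on 3 GFP+ and 3 input libraries. The submitters' processing notes name Trimmomatic 0.32, Bowtie2 2.1.0, Cufflinks 2.2.1, DESeq2 1.2.8 and dm6, and the counting program and annotation release are not given in the sources used here. The authors deposited FPKM per group, with confidence bounds and a status, for 17411 genes. The authors also deposited a comparison table for 17490 genes, in which the mean normalized count over the 6 libraries (a signal value: counts divided by size factors) was used. Its other columns hold their fold changes, standard errors, Wald statistics and p-values, which were not used. How the bounds were computed is not given in the sources used here, and the study calls its replicates independent, each sort having used discs pooled from many pupae, with the input collected before the GFP+ cells.

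Genes were joined by gene ID. The ratio of FPKM was formed with no pseudocount. A gene was read where both groups had the status OK and the higher group at least 1 FPKM, which 9199 genes met, and 10 genes lacked that status in a group. Ratios need a value above 0 in both groups, which leaves 9054 genes. Of all gene IDs, 17260 matched the Ensembl 115 annotation of the same assembly. The locus was identical for 58.4% of genes in the FPKM table and for all 10 tubulin genes. Per kilobase ranks used transcripts of at least 500 nt. Ranks by FPKM left out genes with the status HIDATA, 3 in GFP+ cells and 2 in input.

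Genes with a single read gave the size factors (0.845 to 1.02 in GFP+ and 0.970 to 1.17 in input libraries). Their group came from the FPKM column in which such genes are above 0. Each of 5577 genes with a mean normalized count up to 40 gave exactly 1 set of whole reads over the 6 libraries. The tolerance was 1.5e-13. When every value was shifted by the same small fraction, 0.072% of genes gave a set. alphaTub85E lies above that limit and has no value per library. The factor of 1.01 on the input FPKM in the alphaTub84B estimate came from 1238 genes with 1 transcript and at least 10 recovered reads per group. It was the median of their FPKM ratio, GFP+ over input, divided by their ratio of normalized recovered reads. Recovery was checked on simulated counts. Library totals are approximate: each is the total of all mean normalized counts times the size factor of the library. They take this normalized total as equal in all libraries.

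The alternatives were a pseudocount of 1, centring on the median ratio, equal summed FPKM, removal of the length trend (lowess, span 0.3), a fold of 1.5, and no filter on level. The tubulin genes and the lists were chosen with earlier results of these data known. From each of the 4 lists of tubulin-related genes the 3 with the highest mean FPKM were named. Other genes of these lists, and the cell type markers named, were chosen after their values were seen. Analyses used Python 3.11.15, pandas 2.3.3, numpy 2.4.6, scipy 1.17.1, statsmodels 0.14.6 and numba 0.67.0, and figures matplotlib 3.10.9.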

Additional observations from a re-analysis of the deposited data

How the results depend on the processing

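The counts of tubulin genes called, 0 higher and 1 lower, were the same with a ratio of over 1.5 required, with no filter on level and with the input bounds scaled by the median ratio. The shares of alphaTub84B with alphaTub84D and of betaTub56D kept their order between the groups when weighted by transcript length. Of 48 alternative log2 ratios of the 10 genes, 1 had another sign: gammaTub23C at -0.16 with equal summed FPKM, against 0.27 as deposited. With a pseudocount of 1, log2 ratios of low genes shrank, to -1.35 for alphaTub85E (-1.96 without it), 0.50 for betaTub85D (1.35 without it), -0.22 for alphaTub67C (-1.29 without it) and -0.03 for gammaTub37C (-1.23 without it). betaTub60D was at -0.77 with equal summed FPKM, against -0.33 as deposited. The scale of the alphaTub84B estimate was varied after seeing the data, and gave log2 ratios of 0.82 to 1.09. Reads recovered for the 3 lowest genes were also added after seeing the data. Centring on the median of 5558 genes took 0.04 off each log2 ratio. No paired analysis was possible because the files hold 1 value per group and the recovered libraries carry no replicate number. For the same reason no library could be left out of the FPKM values. Depth limits alphaTub67C and gammaTub37C, with 21 and 2 reads in GFP+ cells and 58 and 6 reads in input.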
